A study of Mus musculus with 8 samples.

Results

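The 4 primary-transplant samples of the study, out of 8 arrays in all, were chosen by their disease label. Of these, 3 were T-lymphoblastic lymphomas (T-LBL), taken from the spleens of M7 and M9 and a neck lymph node of M12, and 1 was a myeloid hyperplasia, taken from the bone marrow of M10. All 4 mice were of strain Balb/c, carried SEC31A-JAK2, which joins the kinase JAK2 to SEC31A, and are labelled as bone marrow transplants. Tumour DNA was labelled with Cy5 and set against Cy3-labelled DNA of a normal wildtype Balb/c mouse on Agilent 244K genome tiling arrays. The age of the mice, the share of tumour cells in each tissue and the way the fusion was introduced are not given in the sources used here. The arrays measure DNA, so the labelled cell types could not be checked against marker expression.

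T cells build their antigen receptors by cutting and joining V, D and J gene segments in the thymus, and the DNA between the joined segments is lost from the chromosome. The alpha/delta (Tcra/d), beta (Tcrb) and gamma (Tcrg) loci recombine in T-lineage cells, and the delta segments lie inside the alpha locus, so that a V-to-J alpha joining removes them. B cells recombine the heavy chain locus (Igh) and the light chain loci (Igk and Igl), and partial D-to-J joining at Igh is also known in T cells. Myeloid cells do not depend on either process. Loss of DNA at a receptor locus is a known mark of clonal lymphoid samples. Bcl11b, a zinc finger factor needed for commitment to the T lineage and a known tumour suppressor in T-cell lymphoma, was examined beside these loci.

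Values are log2 ratios of sample over reference, centred on each array's autosomal median. A value of 0 means as much DNA as in the reference, and −1 means 1 of 2 copies lost in all cells. In bulk tissue, a loss in fewer cells and a smaller loss per cell cannot be told apart. Positions are on mouse build mm9. Errors of a value on 1 array are standard errors over its probes (SE), while the spread between lymphomas is the SD over 3 mice.

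M7 stood apart from the other arrays. Only 53.8% of its reference spots were well above background, against 98.9% to 99.7% on the other 3 primary arrays, and its probe noise was 0.47 (SD) against 0.23 to 0.28. Its values averaged over windows of 10 neighbouring probes correlated at r = −0.23 with those of M9 and −0.15 with those of M10. M9 and M10 correlated at 0.48 (Pearson). The correlations cover 22044 autosomal windows, outside the 7 loci and a region of chromosome 3 described below. The arrays share probes and reference strain. M7 and M10 shared a slide but not a scan, and were scanned at 2 and 3 microns per pixel. No scan held both M10 and a primary lymphoma, and M12 was alone on its slide and in its scan. The scan of M10 also held M12.50 and M12.53, 2 secondary lymphomas labelled as derived from mouse 12. M9 shared a slide with M12.50, in a different scan.

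At the level of whole loci, the lymphomas carried less DNA than M10 at Tcra/d and Tcrb. At Tcra/d (171 probes, chromosome 14, 53003202 to 54849589) the mean was −1.46 ± 0.10 in M12, −0.22 ± 0.06 in M7 and −0.18 ± 0.04 in M9, against −0.02 ± 0.02 in M10 (SE over probes). All 3 lymphomas lay below M10, and M12 was far below the other two. Over windows of 10 probes, all 3 lymphomas lay below M10 in 15.9% of all autosomal windows. At Igk they did so in 8 of 23 windows, at Igl in 1 of 4, at Igh in 4 of 28 and at Tcrg in 0 of 2. The counts were 6 of 10 at Tcrb and 9 of 18 at Tcra/d. The mean difference, T-LBL minus M10, was −0.60 with an SD of 0.73 between the lymphomas (n = 3 against 1, two-sided exact permutation test, p = 0.50). It was −0.18 without M12, so the size of the mean rests on that tumour, −0.79 without M7 and −0.20 between M7 and M10 on their shared slide. In the scan of M10, the secondary lymphomas M12.50 and M12.53 differed from it by −1.95 and −1.53 at Tcra/d and by −0.62 and −0.67 at Tcrb.

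At Tcrb (94 probes, chromosome 6, 40832151 to 41515707) the mean was −0.40 ± 0.05 in M12, −0.30 ± 0.07 in M7 and −0.18 ± 0.03 in M9, against 0.07 ± 0.03 in M10. The 3 lymphomas were close to each other here, and the groups did not overlap. The difference was −0.36 with an SD of 0.11 (n = 3 against 1, two-sided exact permutation test, p = 0.25, the smallest p that 4 possible assignments allow). It was −0.36 between M7 and M10 on their shared slide and −0.16 with normexp signals, in which the background is corrected by a model in place of subtraction. The DNA within 1 Mb on either side of Tcrb measured between −0.02 and 0.09 on the 4 arrays, and that beside Tcra/d between −0.05 and 0.07.

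The other receptor loci separated the groups less or not at all. At Tcrg all 3 lymphomas lay below M10, but M7 at a difference of only −0.002. At Tcrg (20 probes, chromosome 13, 19253466 to 19457911) M7 measured 0.07 ± 0.11, M9 −0.13 ± 0.16, M12 −0.44 ± 0.25 and M10 0.07 ± 0.05. At Igh (269 probes, chromosome 12, 114494022 to 117247677) M12 measured 0.17 ± 0.02, M10 0.08 ± 0.02, M9 −0.05 ± 0.03 and M7 −0.09 ± 0.04. The light chain loci stayed near 0. Igk (228 probes, chromosome 6, 67503230 to 70696318) ranged from −0.08 in M9 to 0.04 in M7, with 0.00 ± 0.02 in M10. Igl (24 probes, chromosome 16, 19003278 to 19289268) ranged from 0.02 in M12 to 0.15 in M7, with 0.09 ± 0.05 in M10. The exact permutation p was 0.50 for Tcrg, 0.75 for Igk and 1 for Igh and for Igl. The difference at Tcrg was −0.24, but −0.35 without M7 and 0.00 between M7 and M10. That at Igh was −0.07, but −0.17 between M7 and M10 and −0.15 without M12. All these comparisons share the same M10 array.

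**Figure D1:**
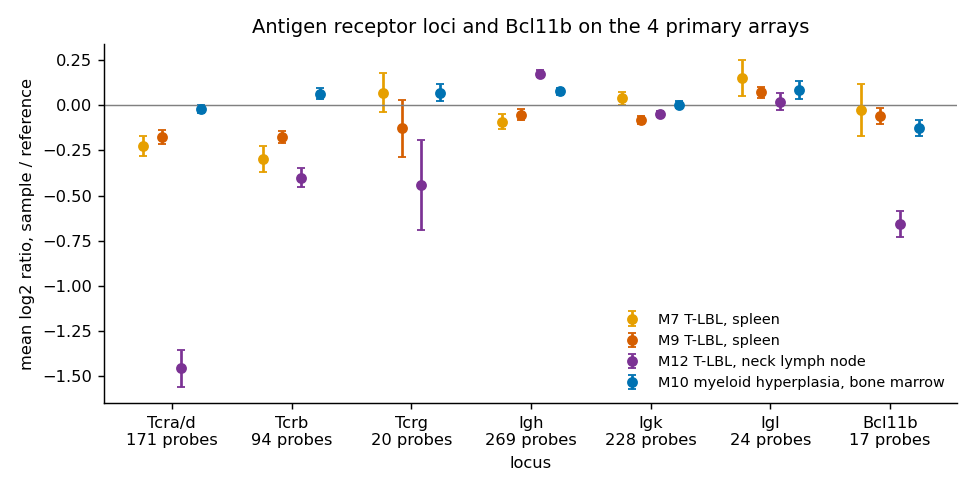
Mean log2 ratio (vertical axis, sample over reference) of the probes of 7 loci (horizontal axis) on the 3 T-LBL arrays and the myeloid array, with bars for the SE over probes. M10 lies above all 3 lymphomas at Tcra/d and Tcrb, M12 reaches −1.46 at Tcra/d and −0.66 at Bcl11b, and the light chain loci lie near 0 on all 4 arrays.

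Within Tcra/d the losses had a common stretch. Along the locus the V segments come first, then the delta D, J and C segments, then the J alpha segments and last the C alpha gene: in the RefSeq gene table of assembly GRCm38.p6, used here for gene order only, the 130 V alpha entries fill places 1 to 133 of 202, and the 60 J alpha entries places 142 to 201. A segment counts as called when its mean is at least 0.25 from 0 over 5 or more probes. The call of M7 ran from 54337752 to 54763495 (57 probes with a value) and that of M9 from 54337752 to 54810474 (64 probes). With normexp signals M9 had no call here. M12 had 3 adjoining calls, from 53415714 to 53714134, from 53716349 to 54291569 and from 54298700 to 54818591. The stretch inside the calls of all 3 lymphomas was 54337752 to 54763495 (426 kb, 59 probes).

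In this shared stretch the mean was −2.45 ± 0.13 in M12, −0.74 ± 0.09 in M7 and −0.51 ± 0.05 in M9, and M10 had −0.07 ± 0.03. M12 was the deepest, M7 and M9 were near each other, and M10 was near the reference. In M12, 51 of 58 probe values were below −1, against 17 of 57 in M7, 3 of 59 in M9 and 0 of 59 in M10. In the sample dye 79.9% of the probes of M12 were well above background. With the others raised to the lowest signal well above background, the sample held at least 5.003-fold less DNA than the reference there. The stretch was chosen as the overlap of the lymphomas' own calls, so its values are a description. The difference from M10 was −1.17 with an SD of 1.06 (n = 3 against 1), and it was −0.67 between M7 and M10 alone, −1.41 without M7 and −0.56 without M12. With normexp signals it shrank to −0.34.

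Upstream of the shared stretch only M12 had a called loss. From 53415714 to 54332051 (51 probes) it measured −1.65 ± 0.15, whereas M7 measured −0.01 ± 0.09, M9 −0.03 ± 0.09 and M10 −0.07 ± 0.05. The mean of M9 there joined unlike parts. It was −0.30 ± 0.08 over the 26 probes of the first call of M12, 53415714 to 53714134, where M10 was at −0.07, and 0.30 ± 0.16 over the 21 probes of the second, where 71.4% of its reference probes were well above background. The first 51 probes of the locus, 53003202 to 53397486, lay at −0.02 ± 0.04 in M12, 0.12 ± 0.07 in M7, 0.07 ± 0.04 in M9 and 0.08 ± 0.04 in M10. The stretch lost in M12 only, before the common one, was 916 kb long.

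**Figure D2:**
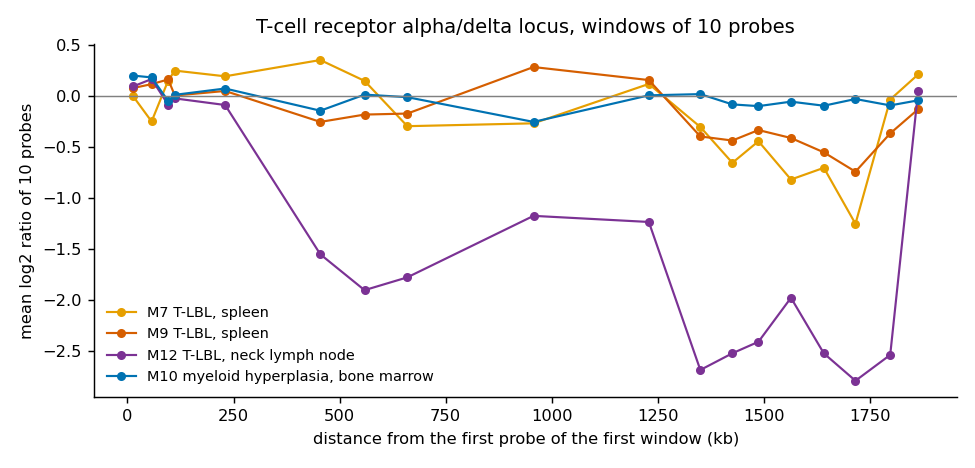
Mean log2 ratio of successive windows of 10 probes (vertical axis) across Tcra/d against the distance in kb from the first probe (horizontal axis), 1 line per array. M12 drops first and stays low to near the end of the locus, M7 and M9 drop together only towards the end, down to −1.25 and −0.74 in their lowest window, and M10 stays between −0.25 and 0.20.

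The depth of the losses in M7 and M9 was not even within the stretch. In the window from 54401612 to 54448926 M7 was at −0.65 and M9 at −0.43, and in the window from 54683914 to 54746960, the lowest of both, M7 was at −1.25 and M9 at −0.74. M12 was at −2.52 and −2.80 in these windows, and M10 at −0.08 and −0.03. The last window of the locus, 54843852 to 54882842, returned to 0.06 in M12, 0.22 in M7 and −0.13 in M9, with M10 at −0.04.

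Tcrb showed a different shape in each lymphoma. M12 had a called loss from 41018389 to 41489670 (60 probes) with a mean of −0.63 ± 0.06. On probes with a bright reference it ran from 40985264 to 41464795, and with normexp signals it was not called. M7 measured −0.46 ± 0.09 and M9 −0.30 ± 0.04 over the 60 probes, and M10 measured 0.06 ± 0.04. M7 and M9 had no called segment here at the penalty used. At a lower penalty M7 had one from 41122850 to 41534921 at −0.65 ± 0.10 and M9 one from 41036581 to 41489670 at −0.31 ± 0.04. The stretch was chosen from M12, so the difference from M10, −0.52 with an SD of 0.17 (n = 3 against 1), is a description.

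Split into 3 successive runs of 20 probes, M12 was at −0.73 ± 0.07, −0.55 ± 0.07 and −0.62 ± 0.16. M7 went from −0.08 ± 0.18 in the first run to −0.58 ± 0.12 and −0.72 ± 0.15. M9 was lowest in the middle run, at −0.46 ± 0.09, with −0.19 ± 0.04 before it and −0.24 ± 0.07 after it. M10 measured 0.00 ± 0.06, 0.05 ± 0.06 and 0.12 ± 0.07. In the middle run the lymphomas had their smallest spread, −0.53 ± 0.06 (SD, n = 3), against 0.05 in M10.

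The 30 probes of the interval before the loss of M12, 40832151 to 41010132, were between −0.01 and 0.12 on all 4 arrays. The 4 probes after the loss, 41495139 to 41515707, measured −0.90 ± 0.42 in M7, where 25% of its reference probes were well above background. M9, M10 and M12 lay between −0.02 and 0.10 there. The lowest probe of M12 in the locus, 41489611 to 41489670 at the end of the loss, was at −3.59. Of the 35 V beta entries in the RefSeq list, 1 lies at the far end of the locus and the others lead it, and the 2 D beta, 14 J beta and 2 C beta entries lie between.

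**Figure D3:**
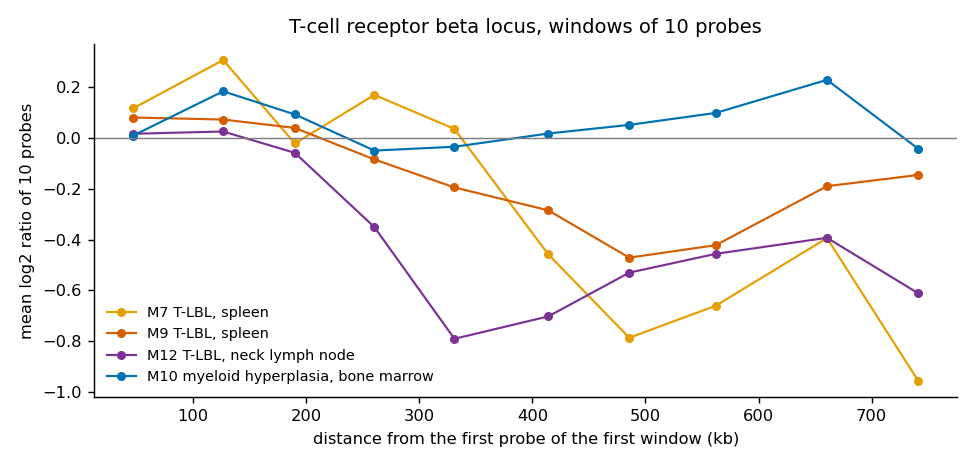
Mean log2 ratio of windows of 10 probes (vertical axis) across Tcrb against the distance in kb from the first probe (horizontal axis), 1 line per array. The 4 lines start together, M12 drops first to −0.79, and M10 stays between −0.05 and 0.23. M7 and M9 drop further along to −0.79 and −0.47 in the window from 41205049 to 41260280. M7 is lowest, at −0.96, in the last window, 41460530 to 41515707, where 30% of its reference probes were well above background.

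At Tcrg few probes were low. In M12 the neighbouring probes at 19274779 to 19274838, 19281464 to 19281523 and 19297883 to 19297942 measured −0.78, −3.92 and −1.77, a probe further along at 19423745 to 19423800 measured −2.79, and its median over the 20 probes was −0.06. In M9 the probe at 19380287 to 19380346 measured −2.52, and its median was −0.05. No probe was below −1 in M7 or M10. The RefSeq list has 7 V gamma, 4 J gamma and 4 C gamma entries, for which the array has these 20 probes. The difference from M10 was −0.05 when medians over probes were compared.

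Igh differed among the lymphomas in sign. M9 was low near the D and J end of the locus, which in the RefSeq table precedes the V segments on the chromosome. Over 20 probes from 114683474 to 114854380 it measured −0.66 ± 0.13, while M7 measured 0.27 ± 0.11, M12 0.34 ± 0.07 and M10 −0.03 ± 0.05. The stretch was chosen as the windows in which M9 was at or below −0.5, so the low value of M9 is a description. Further along, over 80 probes from 116198386 to 117140476 chosen because M9 was high in windows there, M7 was at −0.24 ± 0.10, M9 at 0.24 ± 0.05, M12 at 0.10 ± 0.04 and M10 at 0.13 ± 0.03. In that stretch 77.5% of the probes of M9 and 83.3% of those of M7 were well above background in the sample dye. Their part in the opposite signs was not tested.

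**Figure D4:**
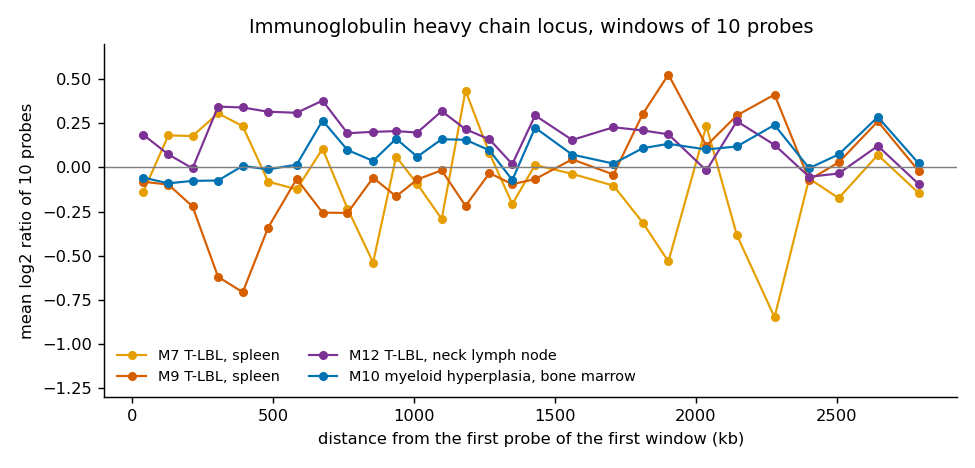
Mean log2 ratio of windows of 10 probes (vertical axis) across Igh against the distance in kb from the first probe (horizontal axis), 1 line per array. M9 falls to −0.71 near the start, M7 falls to −0.85 in the distal part where M9 is above 0, and M10 and M12 stay between −0.09 and 0.38.

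Bcl11b was lost in M12 alone. Over its 17 probes (chromosome 12, 109151199 to 109242804) M12 measured −0.66 ± 0.07, M7 −0.03 ± 0.14, M9 −0.06 ± 0.05 and M10 −0.13 ± 0.05. The locus lay inside a called loss of M12 from 107329523 to 109293982 (1964 kb, 103 probes) with a mean of −0.64 ± 0.03. M7 was at 0.07 ± 0.05, M9 at 0.00 ± 0.02 and M10 at −0.10 ± 0.03 over that stretch. The lymphomas as a group differed from M10 by −0.12 at Bcl11b with an SD of 0.36 (n = 3 against 1, two-sided exact permutation test, p = 1), and by 0.08 without M12.

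Outside these loci the lymphomas shared no loss by the rules used. The autosomes were cut into 22135 windows of 10 consecutive probes. In 24 of them (0.108% of the windows) each lymphoma lay 0.25 or more below M10. Of these, 5 were among the 18 windows of Tcra/d and 4 among the 10 windows of Tcrb. A further 2 lay in a region of chromosome 3 described below, and 13 elsewhere among 22044 windows. In those 13, M10 was high, at a median of 0.32, while the medians of M7, M9 and M12 were −0.09, −0.02 and −0.01. In 25 windows (0.113%) each lymphoma lay 0.25 or more above M10, and none of them was in the 7 loci. M10 was at a median of −0.34 there. Without M7, M9 or M12 the lower count of 24 became 49, 117 or 84. The counts in both directions are alike, and the windows in the receptor loci are all in the lower one.

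A loss in the lymphomas themselves was then required, with a mean of −0.25 or lower in each of M7, M9 and M12 and no use of M10. This rule was set after the values had been seen. It held in 9 windows (0.0407%), 6 in Tcra/d and 3 in Tcrb, and in 0 of the 22044 windows outside the loci and the chromosome 3 region. In 8 of the 9 (0.0361% of all windows) each lymphoma was also 0.25 or more below M10. The closest window outside, on chromosome 3 from 80626055 to 80701258, measured −0.24 in M12, −0.51 in M7 and −0.31 in M9, with M10 at −0.07, so it missed the rule by a small margin. Without M9 the count of 8 became 14, of which 12 were in Tcra/d or Tcrb. Without M7 it was 10, with 9 in these loci, and without M12 it was 11, with 8 there. With the sample dye alone it was 16, of which 7 were in these loci, and with normexp signals no window met the rule.

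**Figure D5:**
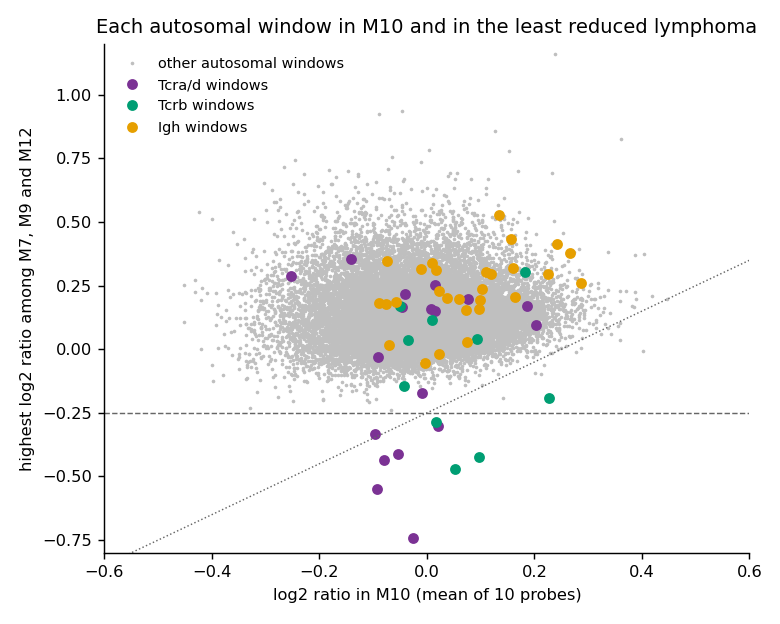
Every autosomal window as a point, with its value in M10 (horizontal axis, log2 ratio) and the highest of its values in M7, M9 and M12 (vertical axis, log2 ratio), and the windows of Tcra/d, Tcrb and Igh in colour. The dashed line marks −0.25 and the dotted line 0.25 below M10, 4 windows fall outside the axes, and the 8 points under both lines belong to Tcra/d and Tcrb.

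The windows were also fitted with limma over all 8 arrays in 3 groups, which assumes that M10 varies like the lymphoma groups. No window passed an adjusted p of 0.05 (0% called, limma with Benjamini-Hochberg adjustment), and 174 had an unadjusted p under 0.05. The 4 secondary lymphomas in this fit are labelled as derived from mouse 12 and do not count as independent of its tumour. The lower windows with the smallest unadjusted p, none past the threshold, were led by Tcrb, 41205049 to 41260280, with a difference of −0.65 ± 0.14 (SE, limma, adjusted p = 1). In it M7 was at −0.79, M12 at −0.53 and M9 at −0.47, and M10 was at 0.05. The third was the Tcra/d window from 54683914 to 54746960, with −1.57 ± 0.53 (SE, limma, adjusted p = 1).

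The other 3 windows of that list lay on chromosome 9, 93737736 to 93823803 and 38832189 to 38885431, and on chromosome 4, 10812456 to 10925747. In these M10 was at 0.40, 0.24 and 0.34, and the lymphomas lay between −0.23 and 0.06. The higher windows with the smallest p were in the same way windows in which M10 was low. On chromosome 4, 140062909 to 140130850, M10 was at −0.36 and the lymphomas at 0.10 to 0.46. On chromosome 8, 13948956 to 13998207, M10 was at −0.34 and the lymphomas at 0.01 to 0.18. On chromosome 1, 93473185 to 93692639, M10 was at −0.29, and on chromosome 6, 119254452 to 119295510, at −0.35. With array weights, 24 windows passed, 17 lower and 7 higher. They included 5 Tcrb, 7 Tcra/d and 1 Tcrg windows and 3 of the chromosome 3 region, and the rest lay elsewhere. With the scan as a block, M7 and M12 dropped out of the contrast, since each was alone in its scan. The fit then compared M9 with M10 through the secondary lymphomas in their scans. On chromosome 3, 44282970 to 44479634, it gave a difference of −2.34. There 10% of the reference probes of M9 and 10% of those of M10 were well above background.

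Calls on whole arrays depended on whether probes with a weak reference signal were kept. M7 had 3 calls, M9 had 9, M12 had 7 and M10 had 1. When only the 52.8% of autosomal probes with a reference well above background on all 4 primary arrays were segmented, M7 and M9 kept 1 call each, the Tcra/d loss. M12 then had 5 calls, all losses, 3 at Tcra/d, 1 at Tcrb and 1 on chromosome 12 at Bcl11b. M10 had 0. On these probes the Tcra/d call was at −0.73 ± 0.13 in M7 over 29 probes and at −0.53 ± 0.05 in M9 over 32 probes.

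The filter drops probes with a dim reference on any of the 4 arrays, so the calls it removed lay mostly there. It also removed the loss call of M12 on chromosome 3, at −3.40 ± 0.12. On the array of M12 itself, 100% of the reference probes of that call were well above background. M7 had a loss call on chromosome 4, 111736907 to 113905033 (120 probes), at −0.83 ± 0.09, where 20% of its reference probes were well above background and M9, M10 and M12 averaged 0.62, 0.03 and 0.06. M9 had gain calls in the same part of chromosome 4, the longest from 112539355 to 113560754 at 0.84 ± 0.11 and the highest from 112102035 to 112213221 at 1.36 ± 0.08. It had others on chromosome 11, from 71001060 to 71107103 at 1.26 ± 0.31, and on chromosome 19, from 12266298 to 12308446 at 1.29 ± 0.25. Of the 10 and 8 reference probes of these last calls, 0 and 1 were well above background. The gain of M12 on chromosome 10, 79059568 to 81052572 (407 probes), had 100% of its probes well above background in both dyes. It measured 0.26 ± 0.01, just past the threshold, and M7 was at 0.04 ± 0.03, M9 at −0.15 ± 0.01 and M10 at −0.04 ± 0.01. It was not called on the filtered probes, at a threshold of 0.4 or with the arrays centred on their mode.

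The chromosome 3 region, 44131436 to 44516704 (18 probes), separated M10 from all lymphomas, but not along the lineage. Its log2 ratio was 5.12 ± 0.29 in M10, 4.33 ± 0.34 in M9, 1.73 ± 0.18 in M7 and −3.40 ± 0.12 in M12. M9 lay near M10, M7 was lower, and M12 had the opposite sign. By dye, each relative to its own autosomal median, the sample signal of M10 was at 0.09 and its reference signal at −5.04, whereas the sample signal of M12 was at −3.27 and its reference signal at 0.10. The sample signals of M9 and M7 differed from that of M10 by −0.04 and −0.56, so the sample dye did not separate M9 from M10. The reference DNA was low on the arrays of M7, M9 and M10 and not on that of M12, so the ratios of M10 and M12 do not share a reference level here.

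The myeloid genome showed no loss call and no gain call outside chromosome 3 at the settings used. At the lower penalty it had a gain call on chromosome 14, 21871548 to 22242706 (50 probes), at 0.28 ± 0.05. Its 19 autosomes were cut into 21 segments, and both breakpoints were those of the chromosome 3 region. M7 had 6 breakpoints, M9 21 and M12 17. Many of those of M7 and M9 lay at calls with a mostly dim reference. On chromosomes 3 and 4 M7 had 2 and 2 and M9 3 and 8, and on chromosomes 11 and 19 M9 had 2 and 2. The mean of M10 ran from −0.03 on chromosome 11 to 0.01 on chromosome 3 over the autosomes. In the lymphomas the extremes were 0.03 (chromosome 14) and 0.09 (chromosome 11) in M7, −0.05 (chromosome 11) and 0.00 (chromosome 3) in M9, and −0.05 (chromosome 14) and 0.04 (chromosome 11) in M12. On 0 of 19 autosomes did all lymphomas lie on the same side of M10. The differences of the group means lay between −0.01 on chromosome 3 and 0.05 on chromosome 11, with adjusted p = 1 throughout by the exact permutation test over 4 assignments.

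On the scale of windows the SD was 0.117 in M10, 0.118 in M9, 0.126 in M12 and 0.189 in M7. At or below −0.25 lay 430 windows of M10, 636 of M9, 199 of M12 and 1114 of M7. No window of M10 was at or below −0.5, and the 3 windows at or above 0.5 were those of the chromosome 3 region. M9 had 10 windows at or below −0.5, M12 had 29 and M7, the noisiest array, had 73. The lowest window of M10, on chromosome 1 from 91557213 to 91622400, was at −0.45, and M7, M9 and M12 were at 0.25, −0.03 and −0.19 there. Its highest window outside chromosome 3, on chromosome 8 from 55271410 to 55454307, was at 0.45, with the lymphomas at 0.16, 0.20 and 0.08.

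At the D and J end of Igh, M10 was also read in 5 probes from 114670169 to 114713534, the 5 neighbouring probes with the lowest mean of M9. M10 measured −0.33 ± 0.06 over them, M9 −1.09 ± 0.13, M12 −0.15 ± 0.20 and M7 0.30 ± 0.06 (4 probes with a value). Of 44283 autosomal windows of 5 probes, 729 (1.65%) were as low or lower in M10. The probes were picked on M9, whose windows correlated with those of M10 at r = 0.48, so the low value of M10 is a description. Over the 20 probes from 114683474 to 114854380 M10 measured −0.03 ± 0.05.

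Both dyes were also read apart, since the reference was not alike on all arrays. Relative to the autosomes, its Y signal was −3.88 on the array of M12. On those of M7, M9 and M10 it was −0.56, −0.81 and −0.75. Its X signal was −0.07 with M12 and −0.98, −0.89 and −0.94 with M7, M9 and M10. M12 was thus set against reference DNA of another sex chromosome content. In the shared Tcra/d stretch the sample dye alone, lymphoma minus M10, gave −0.77 in M7, −0.65 in M9 and −2.97 in M12. At Tcrb it gave −0.47, −0.17 and −0.65. At Tcrg it gave −0.31, −0.57 and −0.69. The reference dye also differed from that of the M10 array. Its mean difference over the 3 lymphoma arrays was −0.31 in the shared Tcra/d stretch, against −1.47 in the sample dye. It was −0.08 at Tcrb against −0.43, and −0.30 at Tcrg against −0.52. On the array of M12 the reference differed by −0.60 in the shared Tcra/d stretch. At Bcl11b the sample dye gave 0.08 in M7, −0.12 in M9 and −0.68 in M12. At Tcra/d and Tcrb the sample signal of each lymphoma was below that of M10, and the part of the reference differences in these values was not tested.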

How the data were processed

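Intensities were deposited as processed signals of each dye. Feature Extraction 10.5.1.1, per the file headers, subtracted background, removed a spatial trend and normalised the dyes linearly; the submitters' processing notes name version 9.1.1. The deposited log10 ratios of the series table served as an alternative, and they differ from the ratios of processed signals used here. The Tcra/d call of M7, for example, was at −0.65 with the deposited ratios and at −0.74 with the processed signals. Positions were mm9, and M12, annotated on mm8, took mm9 positions by probe name.

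Log2 ratios of processed Cy5 over Cy3 were computed for non-control spots without outlier flags, averaged per probe and centred on the autosomal median (235402 probes, 221455 autosomal). Outlying values were pulled to 3 SD from the running median over 11 neighbours, segmented by penalised least squares (penalty 6, at least 3 probes), merged below 0.15 and called at 0.25 over 5 probes. Windows of 10 probes were fitted in limma 3.58.1 (R 4.3.3; threshold 0.05); segmentation and fit were checked on simulated data. Group values used exact permutation tests. Tables were computed in Python 3.11.15 with numpy 2.4.6 and scipy 1.17.1.

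Locus intervals on mm9 are approximate and come from general knowledge, since the files name no genes. Their lengths were 1.003 to 1.28 times those in the RefSeq table where it lists the locus (Tcrg was not matched). The loci, lists and rules were chosen with earlier results of these data known. Named were every locus, each primary array's calls of 1 Mb or more and its 5 smaller calls with the largest mean, the 5 windows per direction with the smallest p (1 per run of neighbours, as none passed; 1 higher window is not reported here), and each array's extreme autosomes. Alternatives were normexp signals (offset 50, on median signals, as the files hold no mean signal), the deposited table, probes bright in the reference, mode centring, medians over probes, other call settings, 4 arrays only, array weights, windows of 5 probes, a scan block and each lymphoma left out. Chosen after seeing the data were the sample dye alone, slide 3 alone and the window rules on shared losses.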

Additional observations from a re-analysis of the deposited data

Results flagged for a closer look

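The sex chromosomes were outside the autosomal comparison and carried signals far from 0. Chromosome X had a mean log2 ratio of 0.83 in M10 and −0.90 in M12, and chromosome Y −1.86 in M10 and 2.88 in M12. By dye, relative to the autosomes, the X signal of M10 was −0.10 in the sample and −0.94 in the reference, and that of M12 was −0.95 in the sample and −0.07 in the reference. The Y signal of M10 was −2.60 in the sample and −0.75 in the reference, and that of M12 was −0.98 in the sample and −3.88 in the reference. M7 and M9 lay between, at −0.11 and 0.29 on X and −0.35 and −0.23 on Y. The ratios on X and Y therefore compare DNA with different sex chromosome content on the arrays of M10 and M12, and the reference DNA differed between these 2 arrays.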

How the results depend on the processing

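No paired analysis was possible because the replicate numbers belong to different mice. Tcra/d, Tcrb and the Tcra/d core stayed below M10 under every alternative run, but normexp signals shrank them, with Tcrb at −0.16 and the core at −0.34. The sample dye alone moved Tcrg to −0.52, Igh to −0.23, Igk to −0.11 and Igl to −0.14. Igk was also 0.038 with normexp, 0.029 with mode centring and 0.034 on slide 3, and Igl 0.063 on slide 3. The chromosome 3 autosome difference was 0.033 with normexp and 0.055 with mode centring. Calls on bright reference probes numbered 1 in M7, 1 in M9 and 0 in M10. Normexp gave 1 in M9 and 2 in M10, losing the Tcra/d call of M9 and the Tcrb call of M12, and the deposited table gave 4 in M9. A penalty of 3 gave 12 in M7, 18 in M9 and 3 in M10, and no winsorising gave 16 in M9. In limma, array weights gave 17 lower and 7 higher windows (the weight estimation stopped before convergence). With the scan block, M9 was the only primary lymphoma left in the contrast with M10. The other settings, leave-one-out included, gave 0 windows, with 59 to 1070 at an unadjusted p under 0.05. Windows with each lymphoma 0.25 or more below M10 numbered 24, but 3 with normexp, 41 on bright reference probes, 14 with mode centring and 49 to 117 with 1 lymphoma left out. Windows lost in each lymphoma numbered 8, but 0 with normexp, 16 with the sample dye alone and 10 to 14 with 1 lymphoma left out. The cause of these changes was not tested. The normexp offset of 50 narrows log2 ratios, and the call and window thresholds stayed at 0.25 with it. No scan held both M10 and a primary lymphoma, so no within-scan value exists for the primary arrays. With 1 myeloid array and 3 lymphomas, no exact p could go below 0.25, and the weak reference signal of M7 limits its values.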
